A study of Mus musculus with 20 samples.

Results

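Pax, NK, LIM homeodomain, GATA, bHLH, ParaHox and T-box genes that direct the formation of tissues other than the mammary gland were examined for 3 histone marks in Comma-Dβ cells. The 36 genes were taken from a list of names, and all 36 were found among the 21887 protein-coding genes of the RefSeq table for GRCm38.p6, the assembly on which mm10 is based. Comma-Dβ is a mouse mammary epithelial cell line, and it was used here at passage 28, with no other genotype, strain or treatment given by the labels. Chromatin immunoprecipitation with sequencing (ChIP-seq) was done in 5 groups of 4 replicates, with antibodies to H3K27me3, H3K4me3, H3K27ac and the transcription factor HEB, and from input chromatin without antibody. The growth medium was the same for all groups and contained epidermal growth factor at 5 ng/mL, insulin at 0.125 IU/mL, HEPES at 10 mM and 2% fetal bovine serum. The results describe 1 cell line, and 1 deposited peak list per antibody stands for its 4 replicates. The lists hold no value per replicate, so no difference below has a replicate error or a test, and read depth per sample is unknown. A peak was counted for a gene when at least 1 bp of it lay over the gene or within 1 kb of its ends.

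H3K27me3 is written by Polycomb repressive complex 2 and is known for covering developmental regulator genes in cells where they are off. H3K4me3 is deposited at promoters, and H3K27ac at active promoters and enhancers. A promoter region with both H3K4me3 and H3K27me3 is called bivalent, a state first described at developmental regulators in embryonic stem cells. Acetylation and trimethylation of lysine 27 cannot occupy the same histone tail, so an overlap of their peaks in a cell population joins different tails, alleles or cells.

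The H3K27me3 list held 114660 peaks, whose fold enrichment had a median of 1.74. For the 17162 peaks of H3K4me3 that median was 12.9, and for the 61496 of H3K27ac it was 2.39. These folds, like the −log10 q-values below, are the authors' own values for each peak and are compared only within a list. Markers of mammary epithelium carried active marks in the same windows. H3K27ac was found at 12 of 12 of them (among them Krt5, Krt14, Krt8, Krt18, Epcam and Cdh1) and H3K4me3 at 11 of 12, with Krt19 the exception. H3K27me3 was also present at 5 of the 12 (Krt5, Krt14, Krt7, Epcam and Cdh1), each time overlapping H3K4me3. The widest of these peaks was 16.8 kb, at Krt5, with a fold of 2.02. Together with a narrower peak of fold 2.43 it covered 88.0% of the Krt5 window.

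The promoters of 4 genes are shown because these genes mark the ends of the range described below. Cdx2 had the H3K27me3 peak with the highest fold among the 36 genes, Isl1 had the strongest H3K4me3 and the only acetylated promoter, Pax8 had the widest H3K27ac peak and Myf5 had no peak at all. Each sequence is the RefSeq promoter window of 300 bases in GRCm38.p6, from 250 bases before the start to 50 bases after it, 5′ to 3′ on the gene's strand, with each CpG dinucleotide in capitals.
Cdx2 (chr5:147307200-147307499, minus strand): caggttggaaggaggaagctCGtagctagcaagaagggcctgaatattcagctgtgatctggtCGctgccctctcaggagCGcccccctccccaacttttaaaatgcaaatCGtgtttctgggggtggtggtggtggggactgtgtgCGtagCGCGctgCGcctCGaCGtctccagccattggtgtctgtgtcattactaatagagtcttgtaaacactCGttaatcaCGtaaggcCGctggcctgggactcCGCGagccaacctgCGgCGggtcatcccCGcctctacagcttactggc
Isl1 (chr13:116309639-116309938, minus strand): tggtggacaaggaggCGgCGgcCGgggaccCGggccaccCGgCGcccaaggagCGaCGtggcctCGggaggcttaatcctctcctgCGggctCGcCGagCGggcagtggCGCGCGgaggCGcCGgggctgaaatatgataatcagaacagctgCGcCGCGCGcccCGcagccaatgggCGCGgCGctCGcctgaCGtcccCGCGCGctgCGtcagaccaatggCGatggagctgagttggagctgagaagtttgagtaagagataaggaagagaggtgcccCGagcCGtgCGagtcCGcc
Pax8 (chr2:24475550-24475849, minus strand): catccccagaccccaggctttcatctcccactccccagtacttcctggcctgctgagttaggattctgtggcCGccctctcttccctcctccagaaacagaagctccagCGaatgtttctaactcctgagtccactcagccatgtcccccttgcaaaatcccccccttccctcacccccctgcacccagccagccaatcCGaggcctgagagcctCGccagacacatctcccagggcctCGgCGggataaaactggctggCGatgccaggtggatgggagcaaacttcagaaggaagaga
Myf5 (chr10:107486085-107486384, minus strand): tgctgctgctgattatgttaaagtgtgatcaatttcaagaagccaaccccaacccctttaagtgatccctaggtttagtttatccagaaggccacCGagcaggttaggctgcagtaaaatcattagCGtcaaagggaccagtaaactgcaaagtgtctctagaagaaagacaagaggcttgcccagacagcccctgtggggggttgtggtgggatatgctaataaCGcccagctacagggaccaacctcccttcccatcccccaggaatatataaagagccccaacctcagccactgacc
The number of CpG dinucleotides was 18 in the Cdx2 window, 37 in that of Isl1, 7 in that of Pax8 and 3 in that of Myf5.

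H3K27me3 covered nearly the whole set. It was present at 35 of the 36 genes, where 37.5% of all protein-coding genes carried it, and Myf5 was the exception. The widest H3K27me3 peak of each gene had a median width of 32.1 kb over all 36 genes, Myf5 counted as 0. Over the 35 marked genes the median was 32.2 kb (interquartile range 23.0 to 51.7), beside 6.26 kb (2.21 to 15.6) over the 8216 marked protein-coding genes. Peaks of 30 kb or more lay at 20 of the 36 genes, against 4.41% of all genes, and peaks of 10 kb or more at 30, against 13.9%. For 19 of the 36 genes the mark ran without a gap over the gene and the 1 kb on each side, which held for 3.82% of all genes. The genes were not long, with a median length of 7.99 kb against 17.2 kb for all protein-coding genes, and at 25 of them the widest peak was longer than the gene itself, against 9.94% of all genes. Its fold lay between 2.18 (Isl1) and 4.78 (Cdx2), above the list median at all 35 marked genes, as it was at 80.7% of all marked genes. When only peaks that reach a −log10 q of 5 were counted, all 35 kept the mark while the share of all genes fell to 19.5%. No H3K27me3 peak was shared by a pair of the 36 genes.

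**Figure D1:**
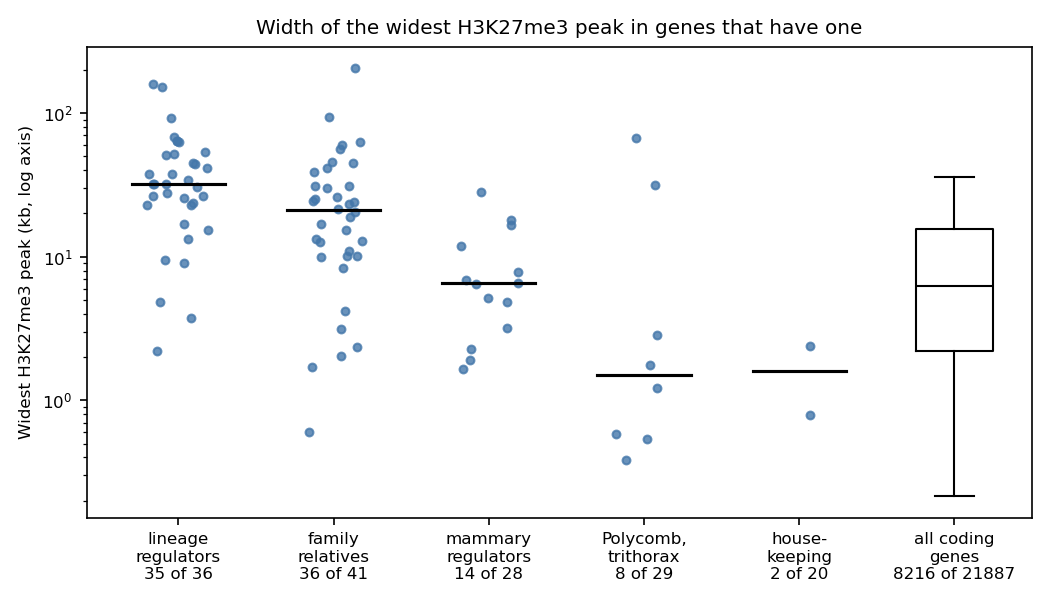
Width of the widest H3K27me3 peak (kb, log axis) in each gene that has one, for the 36 lineage regulators and 4 comparison lists (points, with a bar at the median), and for all protein-coding genes (box from the lower to the upper quartile, line at the median, whiskers to the farthest gene within 1.5 box heights). The number of genes with a peak stands under each name. The lineage regulators have a median of 32.2 kb and all marked genes one of 6.26 kb.

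The Pax genes, which encode paired-domain factors, held the widest and the narrowest domains of the set. All 9 carried H3K27me3. At Pax5, the B cell commitment factor (chromosome 4, 44524748 to 44710694), adjoining peaks of 159 kb and 114 kb covered 99.4% of the window, and the first was wider than the widest peak of 99.8% of marked genes. Pax2, needed for kidney and eye formation (chromosome 19, 44746601 to 44838269), lay whole under a peak of 151 kb with a fold of 4.02. Pax7, a regulator of muscle satellite cells, had its widest peak of 64.2 kb at the end of the gene that holds its RefSeq start, and 6 further peaks along the rest. These 3 genes are long, and over the 35 marked genes the width of the widest peak and gene length gave a Pearson r of 0.63 and a Spearman rho of 0.16, both across genes of the same peak list.

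Like Pax7, Pax3, a regulator of neural crest and muscle precursors, had a broken mark. Its 10 H3K27me3 peaks covered 88.4% of the window, and the widest was 30.8 kb. When peaks less than 1 kb apart were joined, this became 73.4 kb. The eye and brain regulator Pax6 had a peak of 52.2 kb that covered 79.1% of its window. Pax1 (32.2 kb), Pax9 (23.6 kb) and Pax4 (16.8 kb), which act in the vertebral column, the pharyngeal pouches and the endocrine pancreas, had shorter ones. Pax8, a regulator of thyroid and kidney (chromosome 2, 24420551 to 24475599), stood at the other end. Its only H3K27me3 peak was 2.22 kb wide, ended 700 bp inside the gene from its start and covered 3.88% of the window.

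**Figure D2:**
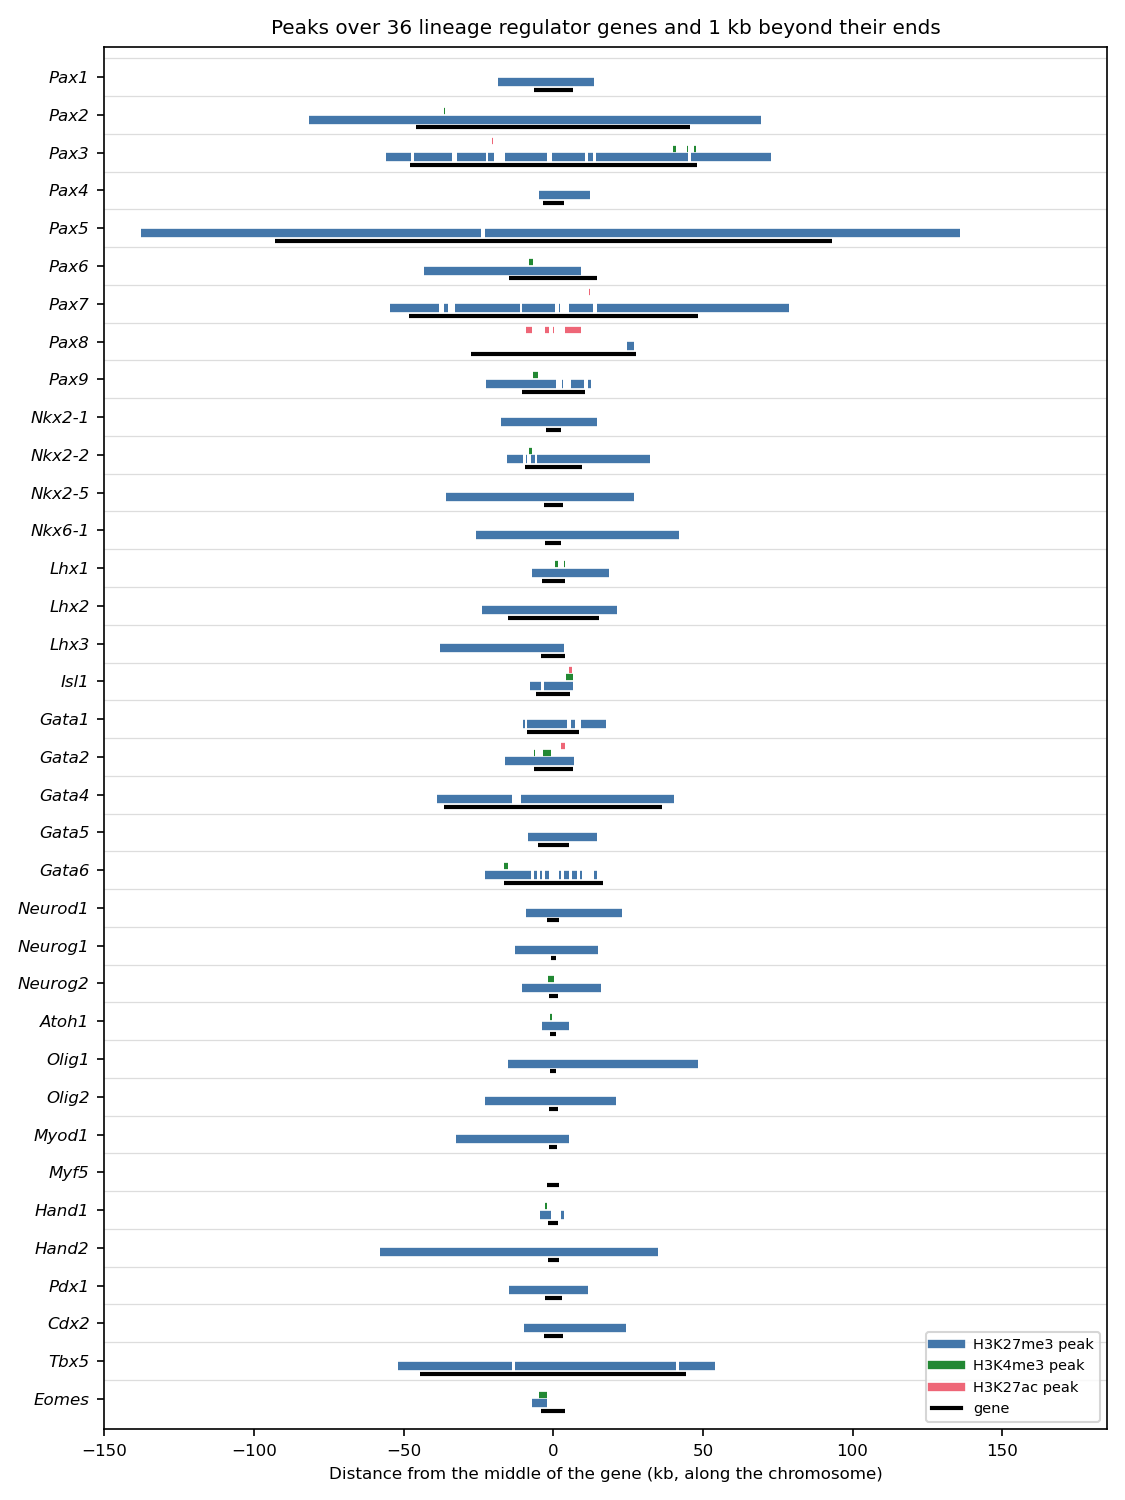
Peaks counted for each of the 36 genes, drawn to scale as distance in kb from the middle of the gene along the chromosome, with H3K27me3 in blue, H3K4me3 in green, H3K27ac in red and the gene in black. H3K27me3 reaches past the gene at most loci, Myf5 has no peak, and red marks appear at Pax3, Pax7, Pax8, Isl1 and Gata2 alone.

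The NK homeodomain genes are short, and their domains reached far beyond them. Nkx6-1, a regulator of pancreatic beta cells and ventral neurons (chromosome 5, 101659184 to 101664711), is 5.53 kb long and lay inside a peak of 67.7 kb. The heart regulator Nkx2-5 lay inside one of 62.9 kb with a fold of 4.01. Nkx2-1, which directs lung and thyroid formation, had a peak of 32.3 kb, and Nkx2-2, a factor of the ventral neural tube, one of 37.5 kb beside 3 smaller ones. None of the 4 had H3K27ac, against 63.2% of all protein-coding genes.

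Among the LIM homeodomain genes, Isl1 stood apart. Lhx2, a forebrain and eye regulator, had a peak of 44.9 kb, Lhx3, a pituitary and motor neuron regulator, one of 41.2 kb, and Lhx1, which acts in the embryonic head and kidney, one of 25.8 kb with a fold of 4.68. Isl1, a regulator of motor neurons and heart progenitors (chromosome 13, 116298270 to 116309688), had peaks of 9.46 kb and 3.64 kb, with folds of 2.18 and 2.09. That fold of 2.18 was the lowest of any widest peak in the set.

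The GATA genes encode zinc finger factors of blood, heart and endoderm. Gata4, a heart and endoderm regulator, had H3K27me3 peaks of 51.2 kb and 25.1 kb over 96.3% of its window. Gata5 lay whole under one of 23.1 kb and Gata2, a regulator of blood progenitors (chromosome 6, 88193891 to 88207032), under one of 23.0 kb over 95.3% of its window. Gata6 had 9 peaks, the widest of 15.4 kb, over 54.6% of its window. The erythroid regulator Gata1, on the X chromosome, had 4 peaks, the widest of 13.2 kb with a fold of 2.26.

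The bHLH genes encode factors that bind DNA as dimers with E proteins such as HEB. Of the 10, 9 carried H3K27me3 and none carried H3K27ac, against 37.5% and 63.2% of all protein-coding genes. The 10 are short, with a median length of 3.02 kb against 17.2 kb for all protein-coding genes. The oligodendrocyte regulators Olig1 and Olig2 lie side by side on chromosome 16, under separate peaks of 63.5 kb and 44.0 kb. The 7.64 kb between those peaks held no peak of any of the 3 marks. Neurod1 (32.0 kb), Neurog1 (27.8 kb) and Neurog2 (26.4 kb), all neuronal determination or differentiation factors, lay whole under 1 peak each, as did Atoh1, a regulator of hair cells and cerebellar granule neurons, at 8.98 kb. Hand2 and Hand1, which act in heart and limb and in heart and trophoblast, differed widely. Hand2 lay inside a peak of 92.9 kb, and Hand1 had one of 3.77 kb that covered, with a second, 35.8% of its window.

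The pair of skeletal muscle determination factors were marked differently. Myod1 (chromosome 7, 46376474 to 46379092) lay whole under an H3K27me3 peak of 37.7 kb. Myf5 (chromosome 10, 107482908 to 107486927) had no H3K27me3, H3K4me3 or H3K27ac peak, a state found at 13.9% of protein-coding genes, and its nearest H3K27ac peak lay 14.5 kb away. Its neighbour Myf6, the muscle differentiation factor beside it on the chromosome, also had none of the 3 marks. The third relative, Myog, carried an H3K27me3 peak of 41.2 kb.

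The ParaHox genes Pdx1, a pancreas regulator, and Cdx2, an intestinal and trophectoderm regulator, carried 2 of the 3 highest H3K27me3 folds of the set. Pdx1 had a peak of 26.4 kb at a fold of 4.55, and Cdx2 one of 34.3 kb at 4.78, which also reached Urad. These genes are neighbours on chromosome 5, and a gap of 9.64 kb between their wide peaks held an H3K27ac peak of 1.36 kb (147292050 to 147293411) with a fold of 4.36 and a −log10 q of 20.3. That acetylated peak lay 7.49 kb from Cdx2 and 16.2 kb from Pdx1, outside both windows. An H3K4me3 peak of 0.279 kb lay inside it, with a fold of 1.99. The gap also held a small H3K27me3 peak of 0.711 kb (147285584 to 147286294) with a fold of 1.93. Of the T-box genes, the forelimb and heart regulator Tbx5 had 3 H3K27me3 peaks, the widest of 53.6 kb. Eomes, a regulator of trophoblast and early endoderm, had 1 of 4.81 kb over 28.2% of its window.

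H3K4me3 was found at these genes only together with H3K27me3. It was present at 13 of the 36 genes, against 61.2% of all protein-coding genes. At all 13 an H3K4me3 peak overlapped an H3K27me3 peak, which occurred at 10.2% of all genes and at 16.7% of those with H3K4me3. H3K27me3 covered a median of 100% of the window over the 36 genes, and where coverage is that wide the overlap adds little. Coverage was lower at some of the 13, such as Gata6 (54.6%), Hand1 (35.8%) and Eomes (28.2%). The overlap is called bivalent below, also where it lay away from a promoter. The 13 genes were Pax2, Pax3, Pax6, Pax9, Nkx2-2, Lhx1, Isl1, Gata2, Gata6, Neurog2, Atoh1, Hand1 and Eomes. At 10 of them H3K27ac was absent from the window, a combination found at 3.38% of all genes. H3K27me3 with neither other mark was found at 20 of the 36 genes, against 17.9%.

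The bivalent H3K4me3 peaks were small and weak. The 13 genes held 17 such peaks, from 230 to 2636 bp wide with a median of 948 bp and a median fold of 3.09, and 15 of the 17 lay wholly inside H3K27me3. All H3K4me3 peaks of the list that overlapped H3K27me3, 2701 in number, had a median fold of 4.89 and a median width of 1121 bp. Every one of the 17 had a fold under the median of the whole H3K4me3 list. Isl1 came closest to it, with a peak of 2.59 kb over its start at a fold of 12.8 and a −log10 q of 179. The next were Gata6 at 5.59, Gata2 at 4.13, Pax6 at 4.10 and Eomes at 4.09. Nkx2-2 (3.84), Neurog2 (3.65), Lhx1 (3.26), Pax2 (3.09), Hand1 (2.98) and Pax9 (2.44) followed. Pax3 alone had 3 peaks, with folds from 2.31 to 2.96, while Lhx1 and Gata2 each had a second one, at 2.26 and 2.13. Atoh1 had the lowest, at 2.01 with a −log10 q of 2.23, and it alone of the 13 lost its bivalent call when only peaks reaching a −log10 q of 5 were counted. With peaks above the median fold of each list, none of the 13 kept it, and 1.29% of all genes had it.

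**Figure D3:**
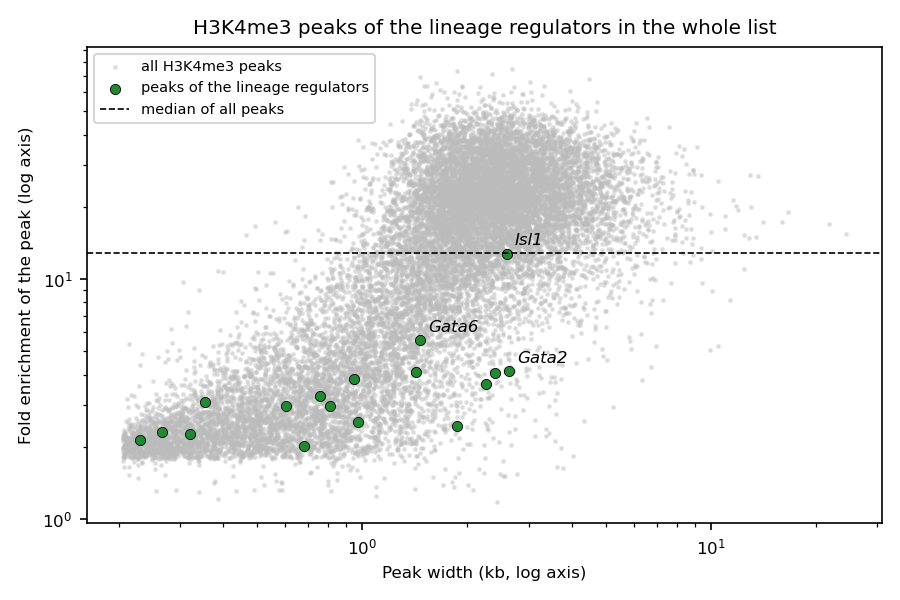
Fold enrichment against width (kb) of all 17162 H3K4me3 peaks (grey) and of the 17 peaks at the lineage regulators (green), on log axes, with a dashed line at the list median of 12.9. All 17 lie under the line, and Isl1 lies just below it at 12.8.

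RefSeq starts were used for 10 of the 13 genes, and H3K4me3 covered a start at 7 of them, against 89.4% of all genes with H3K4me3. They were Pax9, Lhx1, Isl1, Gata2, Neurog2, Atoh1 and Eomes. At Gata2, with 2 promoter windows in the table, the wider peak (2.64 kb) covered the start that lies further inside the gene, and a peak of 0.23 kb lay 225 bp from the outer one. The peak of Pax2 lay 175 bp from a start. In Pax6 the peak of 1.42 kb lay 5589 bp from the nearest listed start, and in Nkx2-2 the peak of 0.948 kb lay 7601 bp from it. Hand1 was the gene whose peak lay farthest into the flank, 0.519 kb beyond the gene. Peaks of Lhx1, Gata2, Gata6 and Eomes also lay over the lncRNA genes Lhx1os, Gm38708, Gata6os and Gm33408, whose marks cannot be told apart from theirs. Just outside the windows, an H3K4me3 peak lay 1.30 kb from Cdx2.

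H3K27ac was found at few of these genes. It was present at 5 of 36, against 63.2% of all protein-coding genes, and all 5 also had H3K27me3, which 24.6% of genes with H3K27ac have. With 35 of the 36 genes marked, that overlap adds little. Read the other way, 5 of the 35 genes with H3K27me3 had H3K27ac, against 41.4% of all genes with H3K27me3. The 5 genes were Pax3, Pax7, Pax8, Isl1 and Gata2. An H3K27ac peak within 10 kb was found at 8 of the 36 genes, against 71.0%, and the nearest one lay at a median of 37.4 kb. Eomes had the nearest peak outside the windows, 2.64 kb from the gene.

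Pax8 carried the strongest acetylation. Its 4 H3K27ac peaks lay inside the gene, with their edges nearest the start 18245 to 34757 bp from it, and none overlapped H3K27me3 or H3K4me3. The widest was 5.43 kb (chromosome 2, 24451925 to 24457354), with a fold of 4.23, higher than 83.4% of the list, and a −log10 q of 19.1. The others had widths of 1.79, 1.46 and 0.281 kb and folds of 2.46, 2.43 and 2.01. All 4 also lay over the lncRNA gene Gm13415, so the marks of Pax8 and of that transcript cannot be told apart. The CpG-poor promoter window of Pax8 printed above held none of the 3 marks.

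Isl1 was the only one of the 5 with acetylation at its start. Its H3K27ac peak of 1.05 kb (chromosome 13, 116309360 to 116310410) had a fold of 2.71 and a −log10 q of 6.11, and it lay wholly inside the H3K4me3 peak and wholly inside H3K27me3. All 3 marks thus met over the CpG-rich promoter printed above. In Gata2 an H3K27ac peak of 1.23 kb (chromosome 6, 88203056 to 88204285) with a fold of 2.78 lay 4392 bp from the nearest start, apart from H3K4me3 and inside the wide H3K27me3 peak.

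At Pax3 and Pax7 the acetylated peaks were narrow and weak. That of Pax3 was 0.284 kb wide with a fold of 2.00 and a −log10 q of 1.92, and that of Pax7 was 0.241 kb wide with a fold of 2.44 and a −log10 q of 4.22. Both lay wholly inside H3K27me3 peaks, and neither reached a −log10 q of 5, a threshold that kept Pax8, Isl1 and Gata2. Of the 8 H3K27ac peaks of the set, 4 overlapped H3K27me3, against 4.24% of the list. Those 4 lay in Pax3, Pax7, Isl1 and Gata2, whose windows were 88.4%, 89.5%, 90.5% and 95.3% under H3K27me3. The other 4 lay in Pax8, at 3.88%, so this count adds little to the H3K27me3 coverage of the genes.

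Most of the promoters were rich in CpG, those under H3K27me3 alone included. RefSeq promoter windows were used for 28 of the 36 genes. For genes with several windows the highest ratio was taken and, where a mark is named, the highest among the windows that carry it. Myod1, Pax3, Gata6, Pax4, Olig1, Hand1, Gata4 and Tbx5 were not matched. The ratio of observed to expected CpG had a median of 0.768 (interquartile range 0.578 to 0.887) over the 28, against 0.610 (0.236 to 0.849) over 17492 protein-coding genes. A ratio of 0.6 or more was reached by 20 of the 28, against 50.9%. H3K27me3 lay over such a window at 26 of the 28 genes, against 22.0%, H3K4me3 at 7, against 55.8%, and H3K27ac at 1 (Isl1), against 48.8%. At 19 of the 28 genes the promoter had H3K27me3 without H3K4me3, and these had a median ratio of 0.791. Over all 2850 genes in that state the median was 0.280. H3K4me3 and H3K27me3 shared a window at all 7, against 5.33% of all genes, with a median ratio of 0.760 beside 0.709 over all 932 such genes.

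The genes with no promoter window under H3K27me3, Myf5 and Pax8, had ratios of 0.163 and 0.288. Lhx3 had 1 of its windows outside the mark, with a ratio of 0.466, and the other, at 0.745, inside it. Gata1 was as CpG-poor as Myf5, at 0.167, and its window did carry H3K27me3. Isl1 reached 1.05, and Nkx6-1 had the highest ratio, 1.18. Among the 27 genes with a promoter window and H3K27me3, the ratio and the width of the widest peak gave a Pearson r of 0.29 and a Spearman rho of 0.24, across genes that share one peak list.

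**Figure D4:**
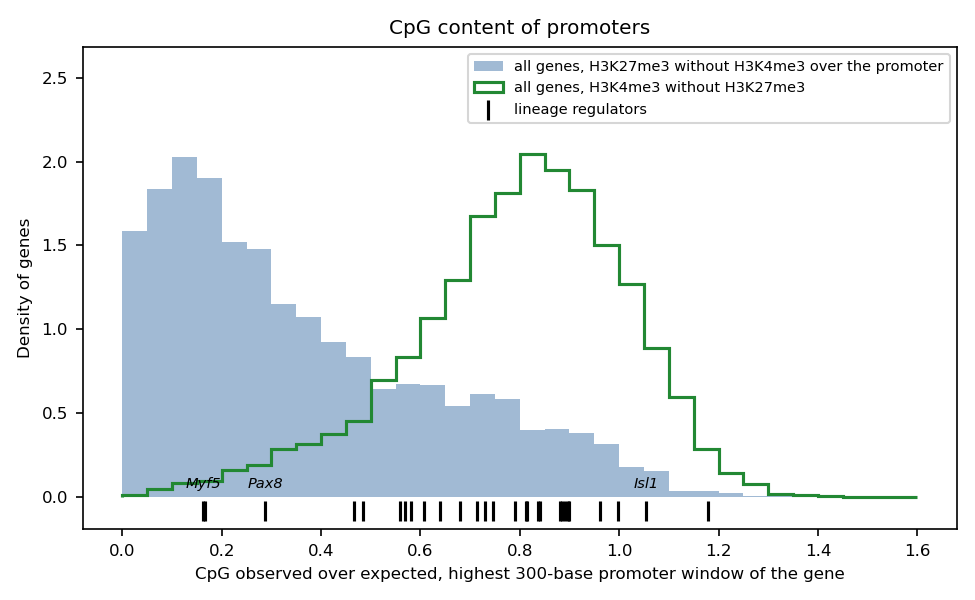
Ratio of observed to expected CpG in the highest promoter window of each gene, as the density of all genes with H3K27me3 and no H3K4me3 there (blue, 2850 genes) and of all genes with H3K4me3 and no H3K27me3 (green line, 8763 genes), with the 28 lineage regulators as ticks below. Values above 1.6 are drawn in the last bin. Most ticks lie under the green distribution, and Myf5 (0.163) and Pax8 (0.288) lie under the blue one.

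HEB sites near these genes were few. A site within 100 kb of a gene end was found for 2 of the 36 (5.56%), against 11.8% of protein-coding genes. The median distance was 1120 kb, against 839 kb over all genes. The genes were Gata4, with a site 66.2 kb away (chromosome 14, 63132227 to 63132671), and Hand1, with one 79.8 kb away (chromosome 11, 57911983 to 57912303). Both sites lay in an H3K27ac peak and in neither of the other marks. The sites nearest to Gata2 (136 kb) and Nkx2-5 (217 kb) did so too. The share of all HEB sites in that state is not given here. None of the 73 H3K27me3 peaks of the 36 genes held an HEB site, and 0.0767% of all H3K27me3 peaks did, so this count is near the background. The comparison lists differed in this respect. A site within 100 kb was found for 7.14% of the mammary regulators (2 of 28) and 7.32% of the family relatives (3 of 41) described below. Their median distances were 1104 and 994 kb. Of the markers of mammary epithelium, 6 of 12 had such a site, with a median distance of 168 kb. So did 3 of the 29 Polycomb and trithorax genes and 5 of the 20 housekeeping genes described below. Low shares were thus not limited to the 36 genes, but they did not extend to the mammary markers.

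Relatives of the same families also carried wide H3K27me3. Of 41 NK, LIM, GATA, bHLH, ParaHox and T-box relatives, 36 had H3K27me3, with a median widest peak of 21.0 kb among them, 15 had bivalent H3K4me3 and 10 had H3K27ac. The widest was that of Lmx1a, at 205 kb. The 10 acetylated relatives were Gata3, Tbx3, Lhx6, Lhx9, Lmx1b, Tbx6, Tbx15, Tbx18, Tbx20 and Atoh8. Gata3, the luminal mammary regulator and the GATA gene left out of the 36, had no H3K27me3, an H3K4me3 peak of 21.7 kb and an H3K27ac peak of 30.6 kb. Tbx3, a mammary bud regulator, had no H3K27me3 and an H3K27ac peak of 7.98 kb. Lhx6 and Tbx6 were acetylated without H3K27me3 as well, and the other 6 had both H3K27 marks.

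Regulators of the mammary epithelium carried active marks at nearly every gene. Of 28 such genes, Gata3 and Tbx3 among them, 26 had H3K27ac, 27 had H3K4me3 and 14 had H3K27me3, whose widest peaks had a median of 6.52 kb, with none of 30 kb or more. Bivalent overlap was found at 10 of the 28 (35.7%), a share close to the 36.1% of the lineage regulators, but 1 of the 28 had it without H3K27ac, against 10 of the 36. Their strongest H3K4me3 peak had a median fold of 12.3, against 3.65 for the 13 lineage regulators with the mark. That median was 5.11 for the 19 family relatives with H3K4me3 and 19.9 for all 13398 protein-coding genes with it. The exceptions without H3K27ac were Foxa1 and Sox10, factors of hormone-sensing luminal cells and of neural crest and mammary progenitors. Foxa1 carried the widest H3K27me3 peak of that list (28.3 kb) together with weak H3K4me3 (fold 2.44), and Sox10 carried H3K27me3 alone (16.7 kb). H3K27me3 was present at 8 of 29 Polycomb and trithorax genes and at 2 of 20 housekeeping genes, and every gene of both lists had H3K4me3 and H3K27ac. The 2 marked housekeeping genes, Hprt and Pgk1, lie on the X chromosome.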

How the data were processed

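Peak lists of ChIP-seq in Comma-Dβ cells were used as deposited, with positions in mm10. The build and the use of SAMtools, with no version, come from the submitters' processing notes. Which control, aligner and peak caller were used, and how the 4 replicates became 1 list, was not given in the sources used here. Per the file headers and layout, the 3 histone lists are broadPeak files in which the authors give each peak a fold enrichment (a ratio), a −log10 q-value and a score, the last being 10 times the −log10 q-value and not used. The HEB list, deposited as a consensus of replicates, holds positions only.

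Genes and promoter sequences came from RefSeq (GRCm38.p6). Peaks over each gene and 1 kb beyond were counted with Python 3.11.15, pandas 2.3.3 and numpy 2.4.6, by code tested on simulated data, and the same was done for all 21887 protein-coding genes as background. Exons were not used here. Genes named in detail were those with H3K27ac, with bivalent H3K4me3, without H3K27me3 or with the 10 widest H3K27me3 peaks, those nearest to an HEB site, and the acetylated or most widely marked genes of the other lists, and the remaining members are given by their widths. The members and lists were chosen with earlier results of these data known. With no replicate columns there was no test. Alternatives changed the peak threshold, the window, the overlap, the joining of peaks and the distance to HEB sites.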

Additional observations from a re-analysis of the deposited data

How the results depend on the processing

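The count of 35 genes with H3K27me3 was the same in every alternative over gene windows, and was 26 of 28 genes over 300-base promoter windows, a setting chosen after seeing the data. Bivalent H3K4me3, at 13 genes, ranged from 9 to 14 under other windows, overlaps and the −log10 q threshold of 5. It fell to 0 with peaks above the median fold of each list, against 1.29% of all genes, and was 7 over promoter windows, against 5.33%. H3K27ac, at 5 genes, was found at 3 with −log10 q of 5 or more (without Pax3 and Pax7), against 55.1% of all genes. Within 1 kb on either side of the gene ends it was found at 1, against 53.4%. Over promoter windows it was found at 1, against 48.8%, and in both cases the gene was Isl1. The median width of 32.1 kb was 33.3 kb when peaks up to 1 kb apart were joined and 92.3 kb when peaks up to 5 kb apart were joined, where the median of all marked genes rose from 6.26 to 26.7 kb. HEB sites lay within 10 kb of 0 genes and within 500 kb of 9, where 1.85% and 37.5% of all genes had one. Counts within 1.5 times of the main one were taken as unchanged. No paired analysis was possible because the peak lists hold no values per replicate. The lists carry no read counts, so a weak or missing peak, as at Myf5, cannot be separated from limited depth.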

Other observations

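Several of the genes share a chromosome arm with another of the set. Nkx2-2 and Pax1 are neighbours on chromosome 2, and the 132 kb between their widest H3K27me3 peaks held 17 smaller H3K27me3 peaks. Nkx2-1 and Pax9 lie on either side of Nkx2-9 on chromosome 12, and the 131 kb between their widest peaks held 19. Nkx2-9 was the 1 protein-coding gene in that gap.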
